A study of Mus musculus with 7 samples.

Results

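Pluripotency and embryonic stem (ES) cell genes are described here in RNA that an anti-EZH2 antibody precipitated from mouse ES cells (RIP-seq). The list held 36 named genes. Their members in the deposited table were the features, intervals called on pooled WT libraries, that lay on the strand of a listed gene, overlapped its GENCODE M21 span in mm10 and overlapped no other gene of that strand. This gave 373 of 303889 features. They belonged to 35 of the 36 genes. Sox2 (chr3:34650405-34652461) had no feature of its own, because another annotated gene on its strand spans it, and no value is given for it. A feature with at least 1 base in an exon of its gene was called exonic and any other feature was called intronic. Exonic features thus also hold bases outside exons. Per gene, 27.7% (Dppa2) to 97.1% (Mycn) of their bases were in exons.

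All cells were a male CAST/B6 ES cell line with a recombination cassette at Rosa26 (RMCE), kept in medium with 15% serum and given 3 days of doxycycline, whose target the labels leave unnamed. SAFB DKO cells lack Safb and Safb2 and were represented by clones 13 and 4. EZH2 KO cells lack Ezh2 and were represented by clones 12 and 19. WT libraries came from the parental line and from clones 20 and 44. Each knockout library was thus 1 clone, and p-values measure the spread between such lines. According to the title of the series, the antibody cross-reacts with SAFB, which binds RNA in the nucleus. Comparing SAFB DKO with WT asks which precipitated RNA depended on SAFB proteins, and comparing EZH2 KO with WT asks the same of EZH2.

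ES cells keep their undifferentiated state through a core of transcription factors, Pou5f1 (OCT4), Sox2 and Nanog, and a wider set of factors of the naive state such as Esrrb, Klf4, Tfcp2l1 and Zfp42. The cytokine LIF sustains these factors through the receptor chains Lifr and Il6st and the transcription factor Stat3, while Fgf4 signalling through ERK moves cells towards differentiation and Nodal ligands are held in check by Lefty1 and Lefty2. EZH2 is the histone methyltransferase of Polycomb repressive complex 2, and SAFB proteins bind RNA and the nuclear scaffold. Input RNA was not analysed here, and a precipitate alone holds both how much of an RNA a cell makes and how much of it is captured, and these cannot be told apart. Nor can fewer cells of a type and less RNA per cell.

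Sequences of 5 exonic stretches are shown first, as a description, from genes picked with their fold changes known. L1td1, Rif1 and Zfp42 were among the members whose exon sums fell most in SAFB DKO. Jam2, whose exon sum fell more than that of Zfp42, is not shown, nor are Dppa2, Il6st and Tbx3, which also fell. The exon sum of Sall4 was called in no comparison, and Pou5f1 rose in SAFB DKO. Each sequence is a wholly coding window of 300 bases on the sense strand. It was taken from GENCODE M21 transcripts of mm10, the C57BL/6J reference rather than the CAST/B6 genome of the cells. It is the window with the most copies of GAAGA in the gene's feature with the most WT counts among those with 300 coding bases. The coding stretches searched had 1668 bases in L1td1, 2856 in Rif1, 846 in Zfp42, 2360 in Sall4 and 317 in Pou5f1. Longer stretches offered more windows, so the copies are not comparable between genes. Capitals mark GAAGA, a purine-rich word. Copies may overlap, and only the sense strand was searched.
L1td1, chr4:98736466-98736765, plus strand, 14 copies, 74.0% purines: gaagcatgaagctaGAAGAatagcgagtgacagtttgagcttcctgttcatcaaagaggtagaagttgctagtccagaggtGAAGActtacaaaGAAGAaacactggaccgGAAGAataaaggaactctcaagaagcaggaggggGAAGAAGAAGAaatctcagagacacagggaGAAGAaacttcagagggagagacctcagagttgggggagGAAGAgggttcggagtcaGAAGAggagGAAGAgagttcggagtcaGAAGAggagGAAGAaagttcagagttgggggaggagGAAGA
Rif1, chr2:52110990-52111289, plus strand, 6 copies, 64.7% purines: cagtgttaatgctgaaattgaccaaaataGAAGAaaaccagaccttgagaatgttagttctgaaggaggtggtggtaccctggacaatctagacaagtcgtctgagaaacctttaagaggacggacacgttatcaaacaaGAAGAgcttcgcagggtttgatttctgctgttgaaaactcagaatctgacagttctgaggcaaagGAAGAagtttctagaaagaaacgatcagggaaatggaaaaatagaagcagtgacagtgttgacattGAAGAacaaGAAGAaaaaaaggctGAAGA
Zfp42, chr8:43296145-43296444, minus strand, 4 copies, 60.0% purines: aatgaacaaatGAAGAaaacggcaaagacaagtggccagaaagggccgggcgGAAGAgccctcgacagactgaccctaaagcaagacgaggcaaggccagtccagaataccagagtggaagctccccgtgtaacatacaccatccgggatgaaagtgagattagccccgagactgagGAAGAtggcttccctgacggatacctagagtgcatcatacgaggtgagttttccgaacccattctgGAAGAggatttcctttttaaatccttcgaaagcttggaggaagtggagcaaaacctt
Sall4, chr2:168754998-168755297, minus strand, 3 copies, 52.0% purines: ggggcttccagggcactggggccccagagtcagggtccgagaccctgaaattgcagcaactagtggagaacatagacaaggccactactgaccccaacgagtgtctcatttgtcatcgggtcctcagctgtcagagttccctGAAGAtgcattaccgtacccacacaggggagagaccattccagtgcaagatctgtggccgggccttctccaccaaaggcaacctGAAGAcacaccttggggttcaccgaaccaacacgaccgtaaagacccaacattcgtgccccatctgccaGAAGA
Pou5f1, chr17:35506167-35506466, plus strand, no copy, 54.7% purines: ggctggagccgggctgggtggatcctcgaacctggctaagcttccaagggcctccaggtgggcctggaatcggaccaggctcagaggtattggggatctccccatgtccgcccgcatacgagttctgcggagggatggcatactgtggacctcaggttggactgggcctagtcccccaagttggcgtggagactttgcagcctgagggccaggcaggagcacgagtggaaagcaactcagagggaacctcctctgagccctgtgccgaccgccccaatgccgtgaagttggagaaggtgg
For comparison, 54.3% of 5274 wholly coding windows of the same length, taken at the centre of exonic stretches of all genes, held GAAGA, and their median purine share was 52.0% with 5th and 95th percentiles of 42.0% and 62.7%. Among the 22 such central windows of members 36.4% held GAAGA, and their median purine share was 48.0%. The windows printed above were picked for their copies, so they are not comparable with central windows.

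Total counts ran from 15812517 to 18738499 in SAFB DKO, from 7050832 to 8353603 in EZH2 KO and from 19024702 to 21832539 in WT libraries. The members held 0.638% to 0.694% of the counts in SAFB DKO, 0.708% to 0.739% in EZH2 KO and 0.727% to 0.789% in WT libraries. Safb had 1.41 and 0.592 counts per unit of normalised library size (CPM) over its exonic features in SAFB DKO, 284 and 314 CPM in EZH2 KO, and 239, 245 and 117 CPM in WT, and Safb2 had 1.60 and 0.323 CPM in SAFB DKO, 178 and 215 CPM in EZH2 KO, and 111, 113 and 64.8 CPM in WT. Ezh2 had 108 and 131 CPM in SAFB DKO, 0.601 and 0 CPM in EZH2 KO, and 104, 126 and 110.5 CPM in WT. The lowest WT value of Safb, 117 CPM, was that of clone 44. Without this library 19 members were called by their exon sums in SAFB DKO against WT, compared with 25 with it. The summed exonic level of the 4 of 8 fibroblast markers with features lay between 8.83 and 10.99 CPM in SAFB DKO, between 4.09 and 9.77 CPM in EZH2 KO and between 11.5 and 14.5 CPM in WT, and Col1a2, Dcn, Lum and Postn, which have no feature of their own, were not measured. The EZH2 KO columns carry names of a different form, so genotype and a possible sequencing run cannot be told apart in any comparison with them.

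In SAFB DKO against WT, the exonic RNA of most pluripotency genes changed relative to library size, and more genes rose than fell. All rises and falls here and below are relative in this way. ERCC spike-in RNA, listed for every sample, was not used for scaling, and whether absolute amounts changed was not tested. The genes that fell include the most abundant ones, L1td1 and Rif1, and the members' share of all counts was lower in SAFB DKO, as given above. Of 35 members tested by their exon sums, 18 rose, 7 fell and 10 were not called. Among all 15231 exon sums tested, 20.0% rose and 21.8% fell. Calls depend on counts, and the shares over all rows, here and below, were not matched to the members' counts. The members' median log2 fold change was 0.40, beside 0.08 over all exon sums. L1td1, Rif1, Jam2, Zfp42, Dppa2, Il6st and Tbx3 made up the genes that fell, and the core factors Pou5f1 and Nanog were among those that rose. Of the 18 members that rose, 7 kept the call whichever library was left out, and of the 7 that fell, 6 did. Without SAFB DKO clone 4, 9 rose and 6 fell. With features that span exon and intron left out 19 members could be tested, of which 6 rose and 4 fell.

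In EZH2 KO against WT, 15 members fell, 10 rose and 10 were not called by their exon sums. Over all exon sums 27.3% fell and 18.1% rose. The members' median was -0.32, beside -0.19 over all. With column totals as library sizes 19 members fell and 8 rose, and with mixed features left out 7 of 19 fell and 2 rose. Tbx3, Tfap2c, Fgf4 and Zfp42 led the genes that rose and Lin28a, Lefty2, Pou5f1 and Lefty1 those that fell, by adjusted p. Both knockouts were compared with the same WT libraries, so their effects are not independent of each other, and the difference between them is tested by setting SAFB DKO directly against EZH2 KO.

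**Figure D1:**
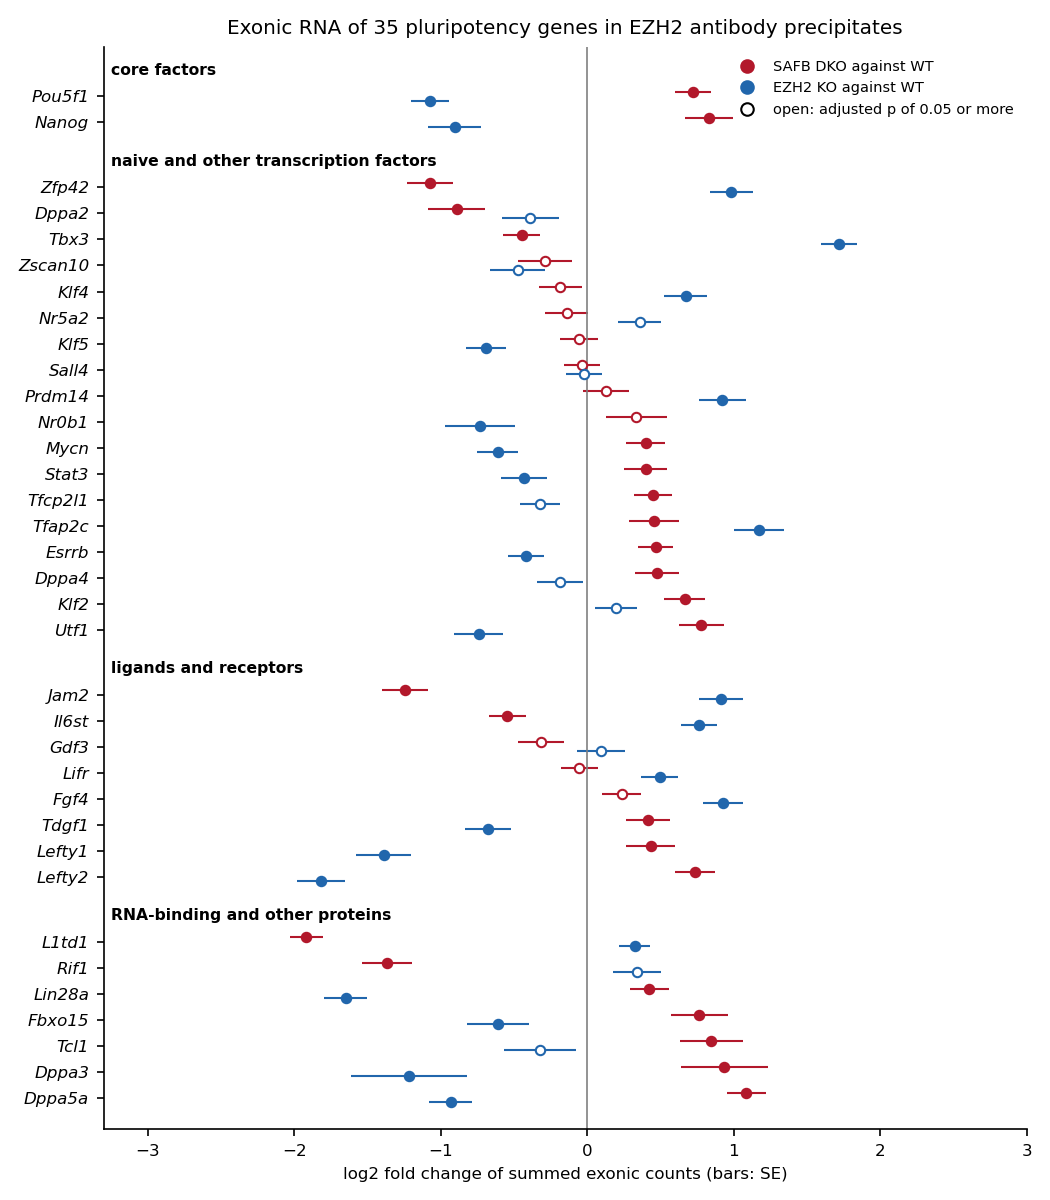
Log2 fold change of summed exonic counts (x axis, bars are SE) for 35 genes grouped by role, in SAFB DKO against WT (red) and EZH2 KO against WT (blue). Filled points have an adjusted p under 0.05. Pou5f1 and Nanog lie right of 0 in SAFB DKO and left of it in EZH2 KO, and L1td1 lies farthest left in SAFB DKO at -1.92.

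Pou5f1 and Nanog both rose in SAFB DKO and fell in EZH2 KO. Pou5f1 (chr17:35506018-35510772), which encodes OCT4, had 329.8 and 325 CPM over its exonic features in SAFB DKO, 101 and 87.4 CPM in EZH2 KO, and 199, 188 and 207 CPM in WT. Groups did not overlap. Its log2 fold change was 0.72 (SE 0.12, adjusted p = 0.00033) in SAFB DKO and -1.07 (SE 0.13, adjusted p = 6e-05) in EZH2 KO. Each of its 3 features rose in SAFB DKO and fell in EZH2 KO, with log2 fold changes between 0.70 and 0.77 and between -1.37 and -0.91. Nanog (chr6:122707489-122714633), the homeobox factor of the naive state, had 119.8 and 127 CPM in SAFB DKO, 29.6 and 44.5 CPM in EZH2 KO, and 66.0, 77.2 and 64.9 CPM in WT. Here too SAFB DKO was highest and EZH2 KO lowest without overlap. For Nanog the log2 fold change was 0.83 (SE 0.16, adjusted p = 0.0011) in SAFB DKO and -0.91 (SE 0.18, adjusted p = 0.0014) in EZH2 KO. Neither gene had an intronic feature. Pou5f1, Nanog and Dppa5a have retrogene copies elsewhere in the genome, and how reads that match both were assigned is not given in the sources used here.

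Among RNA-binding and other proteins, L1td1 and Rif1 fell in SAFB DKO while the other 5 of 7 rose, and 4 fell and 1 rose in EZH2 KO. L1td1 (chr4:98726734-98738480), an RNA-binding protein derived from a LINE-1 retrotransposon, had the highest level per kilobase of exonic feature in WT, 376 CPM per kb. It had 428 and 427 CPM in SAFB DKO, 1935 and 2105 CPM in EZH2 KO, and 1655, 1595 and 1593 CPM in WT. SAFB DKO stood far below both other groups, which did not overlap each other. L1td1 had a log2 fold change of -1.92 (SE 0.11, adjusted p = 9.5e-08) in SAFB DKO and 0.32 (SE 0.11, adjusted p = 0.026) in EZH2 KO. The call in EZH2 KO was lost when any of 5 single libraries was left out (both SAFB DKO clones, EZH2 KO clone 19, the parental WT line or WT clone 20) and with column totals, under which the log2 fold change was 0.08. Its coding feature chr4:98736422-98738423, whose window is printed above, fell by 2.12 on the log2 scale in SAFB DKO (SE 0.11, adjusted p = 4.3e-09). The other long coding feature, chr4:98733199-98734094, had a log2 fold change of -1.49 (SE 0.13, adjusted p = 2.2e-07).

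Rif1 (chr2:52072832-52122383), which controls replication timing and the choice of DNA break repair, had 632 and 839 CPM over its exonic features in SAFB DKO, 2036 and 2767 CPM in EZH2 KO, and 1729, 1769.7 and 2199 CPM in WT. SAFB DKO lay below the other groups, and EZH2 KO overlapped WT. For Rif1 the fitted log2 value was -1.37 (SE 0.17, adjusted p = 2.5e-05) in SAFB DKO and 0.34 (SE 0.16, adjusted p = 0.11) in EZH2 KO. The fall lay in 1 feature. The wholly coding feature chr2:52110127-52112982, 2856 bases long and the source of the Rif1 window printed above, held 106503 counts in WT. It had 455 and 572 CPM in SAFB DKO, 1947 and 2611 CPM in EZH2 KO, and 1586, 1596 and 1988 CPM in WT, with a log2 fold change of -1.75 (SE 0.15, adjusted p = 2.1e-07) in SAFB DKO. The other 23 exonic features of Rif1 had log2 fold changes from -0.24 to 0.94 in SAFB DKO, 20 of them above 0 and 1 of them called. In EZH2 KO the same 23 features had a median of -0.72, and 4 fell. The long feature held 72.0% and 68.2% of the exonic Rif1 counts in SAFB DKO, 95.6% and 94.4% in EZH2 KO, and 91.7%, 90.2% and 90.4% in WT. The exact two-sided permutation test gave p = 0.1 for SAFB DKO and for EZH2 KO against WT. This is the smallest p that 10 splits of 2 and 3 libraries can give, so the test could not reach 0.05. Shares of single features of L1td1, Dppa2 and Jam2 were tested too. Their exact permutation p against WT was 0.1 in SAFB DKO, and 0.9, 0.2 and 0.1 in EZH2 KO, in that order. The Jam2 share was below WT in both knockouts, with means of 31.8% in SAFB DKO, 29.3% in EZH2 KO and 41.3% in WT. The Rif1 share, like those of other single features here and below, was examined after the values had been seen.

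**Figure D2:**
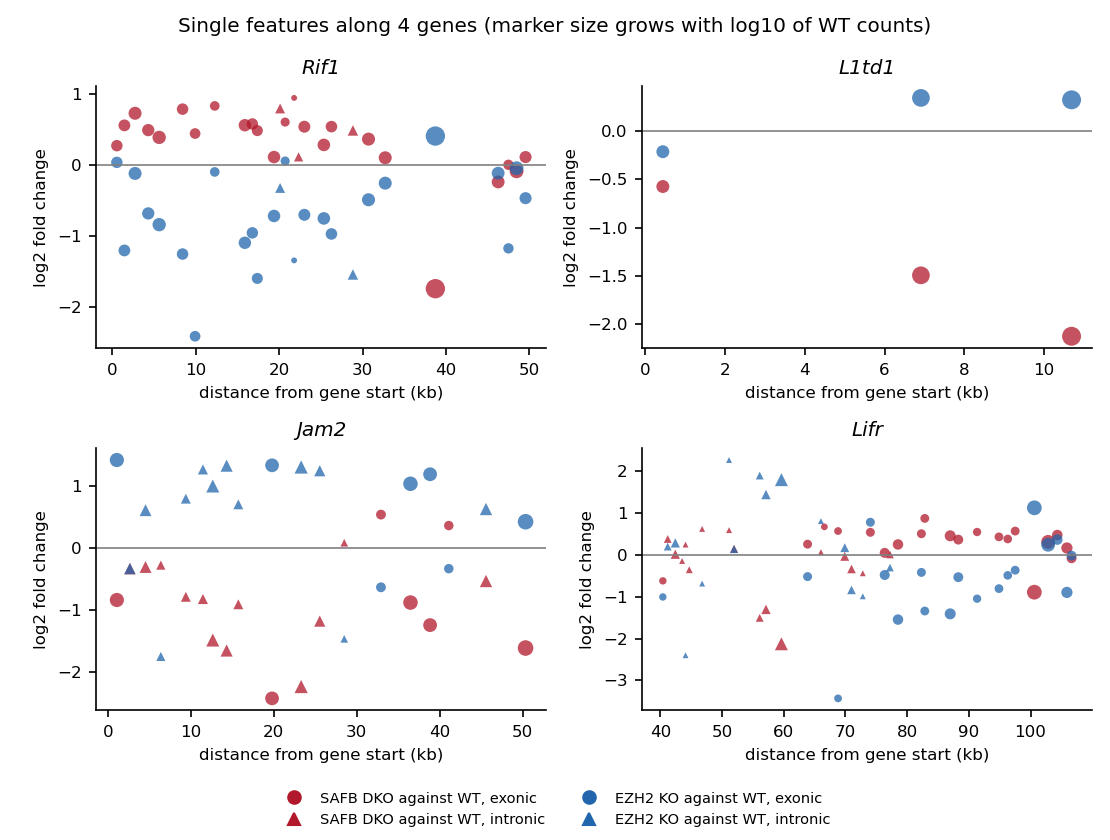
Log2 fold change (y axis) of single tested features against their distance from the gene start in kb (x axis) for Rif1, L1td1, Jam2 and Lifr, in SAFB DKO against WT (red) and EZH2 KO against WT (blue). Circles are exonic and triangles intronic features, marker size grows with WT counts, and features with no count in a group of the comparison are left out. In Rif1, 1 large red circle at -1.75 stands apart from the small ones, most of them above 0, while most red points of Jam2 lie below 0.

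Dppa5a, a KH-domain RNA-binding protein of ES cells, rose most in SAFB DKO among the members. It had 137 and 115 CPM in SAFB DKO, 30.8 and 31.6 CPM in EZH2 KO, and 60.4, 60.3 and 57.8 CPM in WT. Its log2 fold change was 1.08 (SE 0.13, adjusted p = 2.1e-05) in SAFB DKO and -0.93 (SE 0.15, adjusted p = 0.00032) in EZH2 KO. Lin28a, which blocks maturation of let-7 microRNAs, had 334 and 388 CPM in SAFB DKO, 81.5 and 90.3 CPM in EZH2 KO, and 254, 251 and 302 CPM in WT. EZH2 KO fell by 1.65 on the log2 scale (SE 0.15, adjusted p = 1.2e-05), whereas SAFB DKO rose by 0.42 (SE 0.13, adjusted p = 0.02), a call lost without SAFB DKO clone 4, the parental WT line or WT clone 20. Dppa3 (STELLA, which protects methylation in the early embryo), Fbxo15 (an F-box protein) and Tcl1 (a coactivator of AKT) rose in SAFB DKO with log2 fold changes of 0.94, 0.76 and 0.85. In EZH2 KO the values of Dppa3 and Fbxo15 were -1.22 and -0.61, both called, and that of Tcl1 was -0.32 (adjusted p = 0.32). In SAFB DKO the calls of Fbxo15 and Tcl1 were lost without SAFB DKO clone 4, and that of Dppa3 without SAFB DKO clone 13 or any WT library. In EZH2 KO the call of Fbxo15 was lost without EZH2 KO clone 12 or WT clone 20 or 44, and that of Dppa3 without EZH2 KO clone 19 or WT clone 20 or 44.

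Transcription factors of the naive state and other factors divided in SAFB DKO, with 8 of 18 rising, 3 falling and 7 not called. In EZH2 KO 6 fell, 5 rose and 7 were not called. Zfp42 (REX1, a zinc-finger marker of naive cells; chr8:43295063-43306980) had 43.2 and 36.8 CPM in SAFB DKO, 154 and 179 CPM in EZH2 KO, and 86.8, 93.0 and 72.9 CPM in WT. SAFB DKO was lowest and EZH2 KO highest, without overlap. Zfp42 had log2 fold changes of -1.07 (SE 0.16, adjusted p = 9.4e-05) in SAFB DKO and of 0.98 (SE 0.15, adjusted p = 0.00023) in EZH2 KO. Its last exonic feature, chr8:43295400-43296444, which holds the window printed above, had a log2 fold change of -1.32 (SE 0.17, adjusted p = 2.5e-05) in SAFB DKO, while the 2 remaining exonic features had values of 0.55 and 0.57 and were not called. That feature held 77.5% and 79.8% of the exonic Zfp42 counts in SAFB DKO, 96.4% and 95.7% in EZH2 KO, and 93.0%, 92.9% and 93.3% in WT (exact permutation p = 0.1 for each knockout against WT).

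Tbx3, a T-box factor that sustains self-renewal, showed the highest rise of the members in EZH2 KO. It had 51.5 and 47.8 CPM in SAFB DKO, 217 and 228 CPM in EZH2 KO, and 67.6, 68.6 and 66.8 CPM in WT. Tbx3 thus had a log2 fold change of -0.45 (SE 0.13, adjusted p = 0.012) in SAFB DKO and 1.72 (SE 0.12, adjusted p = 4.3e-06) in EZH2 KO. With features that span exon and intron left out, the log2 fold change in SAFB DKO was 0.25 and that in EZH2 KO was not called, and without SAFB DKO clone 4, or with column totals, the fall in SAFB DKO was not called either. The feature chr5:119671147-119672445, of whose 1299 bases 1258 are exonic, had a log2 value of -0.87 (adjusted p = 0.002) in SAFB DKO and one of 2.38 in EZH2 KO (adjusted p = 3.4e-06). Tfap2c, the AP-2 gamma factor, had 69.8 and 69.1 CPM in SAFB DKO, 113 and 115 CPM in EZH2 KO, and 51.5, 61.2 and 39.0 CPM in WT. It rose in SAFB DKO (log2 fold change 0.46, adjusted p = 0.043) and in EZH2 KO (1.17, SE 0.17, adjusted p = 0.00019). In EZH2 KO the feature chr2:172549825-172552037, of which 1023 of 2213 bases are exonic, had a log2 fold change of 1.75. Without either SAFB DKO clone, the parental WT line or WT clone 44 the rise in SAFB DKO was not called. Counted as exonic only where most of a feature was exonic, Tfap2c had -0.79 in EZH2 KO and was not called.

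Esrrb, a nuclear receptor and direct partner of the core factors, rose in SAFB DKO by 0.47 (adjusted p = 0.0066) and fell in EZH2 KO by 0.42 (adjusted p = 0.016) on the log2 scale. Klf2, Utf1, Dppa4, Tfcp2l1, Stat3 and Mycn also rose in SAFB DKO, with log2 fold changes from 0.40 to 0.78. Utf1, a chromatin-bound factor of undifferentiated cells, had the highest of these and fell in EZH2 KO by 0.74 on the log2 scale (adjusted p = 0.0035). Of these rises, those of Stat3 and Mycn lost the call without any SAFB DKO or WT library, that of Dppa4 without SAFB DKO clone 13, the parental line or WT clone 20, and that of Tfcp2l1 without SAFB DKO clone 4 or WT clone 20. Stat3, Mycn, Klf5 and Nr0b1 also fell in EZH2 KO, with log2 fold changes from -0.73 to -0.43. The parental line and WT clone 20 each decided the calls of Esrrb, Stat3 and Nr0b1 in EZH2 KO, which were lost without them. Without EZH2 KO clone 12 those of Stat3 and Nr0b1 were lost, and without WT clone 44 that of Stat3. The Krüppel-like factor Klf4 and Prdm14, a zinc-finger factor of the germ line, rose there by 0.67 and 0.92 on the log2 scale. Without mixed features the rise of Prdm14 was not called. Sall4, a zinc-finger partner of OCT4, had 571 and 654 CPM in SAFB DKO, 595 and 645 CPM in EZH2 KO, and 597, 600.0 and 689 CPM in WT, and the groups overlapped (log2 fold changes -0.04 and -0.02). Single Sall4 features did differ. The feature chr2:168754405-168756793, which holds the printed window, was called in neither knockout against WT but was lower in SAFB DKO than in EZH2 KO by a log2 difference of -0.55 (adjusted p = 0.004), and the other 3 exonic features were higher in SAFB DKO. Of the 4, 1 fell in EZH2 KO against WT. Zscan10 and Nr5a2 were called in neither knockout against WT. The level of Sall4 per kilobase in WT was 111 CPM per kb, after L1td1 at 376, Rif1 at 167 and Pou5f1 at 143, and Dppa3 was lowest at 3.56 CPM per kb.

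Dppa2, a partner of Dppa4 at early embryonic genes, had an exonic log2 fold change of -0.89 in SAFB DKO (adjusted p = 0.0022) and -0.39 in EZH2 KO (adjusted p = 0.13), and holds a peak of the authors' short list. This feature, chr16:48301072-48304058, is 2987 bases long, lies mostly upstream of the annotated gene start at 48303908 and has 151 bases in exons. It had 4.74 and 6.08 CPM in SAFB DKO, 22.1 and 32.7 CPM in EZH2 KO, and 32.7, 24.4 and 32.7 CPM in WT. SAFB DKO was below both other groups, which overlapped. That feature had a log2 fold change of -2.47 (SE 0.26, adjusted p = 2e-06) in SAFB DKO and -0.13 (adjusted p = 0.75) in EZH2 KO. How the authors chose the short list is not given in the sources used here, and its peaks, called on WT libraries, are no independent evidence of a fall from WT. The other 3 exonic features of Dppa2 together had 18.4 and 17.3 CPM in SAFB DKO, 4.81 and 6.45 CPM in EZH2 KO, and 10.8, 11.8 and 17.3 CPM in WT. With such mixed features left out of the sum, Dppa2 had a log2 fold change of 0.49 in SAFB DKO and was not called.

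Among ligands and receptors, 3 of 8 genes rose and 2 fell in SAFB DKO, and 4 rose and 3 fell in EZH2 KO. Lefty2, an inhibitor of Nodal, had 86.6 and 96.1 CPM in SAFB DKO, 14.3 and 16.8 CPM in EZH2 KO, and 52.6, 53.2 and 58.7 CPM in WT. Its log2 fold change was 0.74 (SE 0.14, adjusted p = 0.0008) in SAFB DKO and -1.82 (SE 0.16, adjusted p = 1.3e-05) in EZH2 KO. Its close paralog Lefty1, with which reads may be shared, had 68.8 and 77.2 CPM in SAFB DKO, 16.99 and 24.4 CPM in EZH2 KO, and 52.0, 61.0 and 49.3 CPM in WT. Lefty1 fell by 1.39 on the log2 scale in EZH2 KO (SE 0.19, adjusted p = 0.00012). Its value of 0.43 in SAFB DKO (adjusted p = 0.049) lost the call whenever any SAFB DKO or WT library was left out. Tdgf1 (CRIPTO, the Nodal coreceptor) had a log2 value of 0.42 in SAFB DKO (adjusted p = 0.039) and -0.68 in EZH2 KO (adjusted p = 0.0042), the first lost without either SAFB DKO clone, the parental line or WT clone 44. Gdf3, a ligand of the same family, was called in neither knockout. Fgf4, the growth factor that drives ERK signalling in ES cells, had 155 and 187 CPM in SAFB DKO, 264 and 288 CPM in EZH2 KO, and 147, 158 and 131 CPM in WT. It rose by 0.93 in EZH2 KO on the log2 scale (SE 0.14, adjusted p = 0.00019) and SAFB DKO overlapped WT.

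Jam2 (chr16:84774123-84825928), a junctional adhesion molecule, fell in SAFB DKO and rose in EZH2 KO in exons and introns. Of 7 exonic features tested 5 fell in SAFB DKO and 4 rose in EZH2 KO. Over exonic features it had 68.8 and 83.2 CPM in SAFB DKO, 296 and 380.3 CPM in EZH2 KO, and 164, 176 and 199 CPM in WT. Its exon sum had a log2 fold change of -1.24 (SE 0.16, adjusted p = 2.7e-05) in SAFB DKO and 0.91 (SE 0.15, adjusted p = 0.00038) in EZH2 KO. Of its exonic feature bases 52.1% were in exons, so these sums hold intronic RNA as well. With mixed features left out, the value in EZH2 KO was 0.40 and was not called. Il6st, the gp130 receptor chain, had exonic log2 fold changes of -0.55 in SAFB DKO (adjusted p = 0.0035) and 0.77 in EZH2 KO (adjusted p = 0.00037). Of its 19 exonic features, 2 near the end of the gene fell in SAFB DKO, while the median of the 19 was 0.39. Lifr, the LIF receptor chain, was not called in SAFB DKO by its exon sum (-0.06, adjusted p = 0.75). In EZH2 KO it had a log2 fold change of 0.50 (adjusted p = 0.0069), a call lost with column totals and with mixed features left out. Its feature with the most WT counts aside, 16 of 19 exonic features of Lifr lay below 0 in EZH2 KO, with a median of -0.53, and 17 of 19 lay above 0 in SAFB DKO, with a median of 0.44, and none of the 19 was called in either. Its exonic feature chr15:7190516-7191938 had log2 fold changes of -0.89 (adjusted p = 0.0014) in SAFB DKO and of 1.13 (adjusted p = 0.00037) in EZH2 KO.

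**Figure D3:**
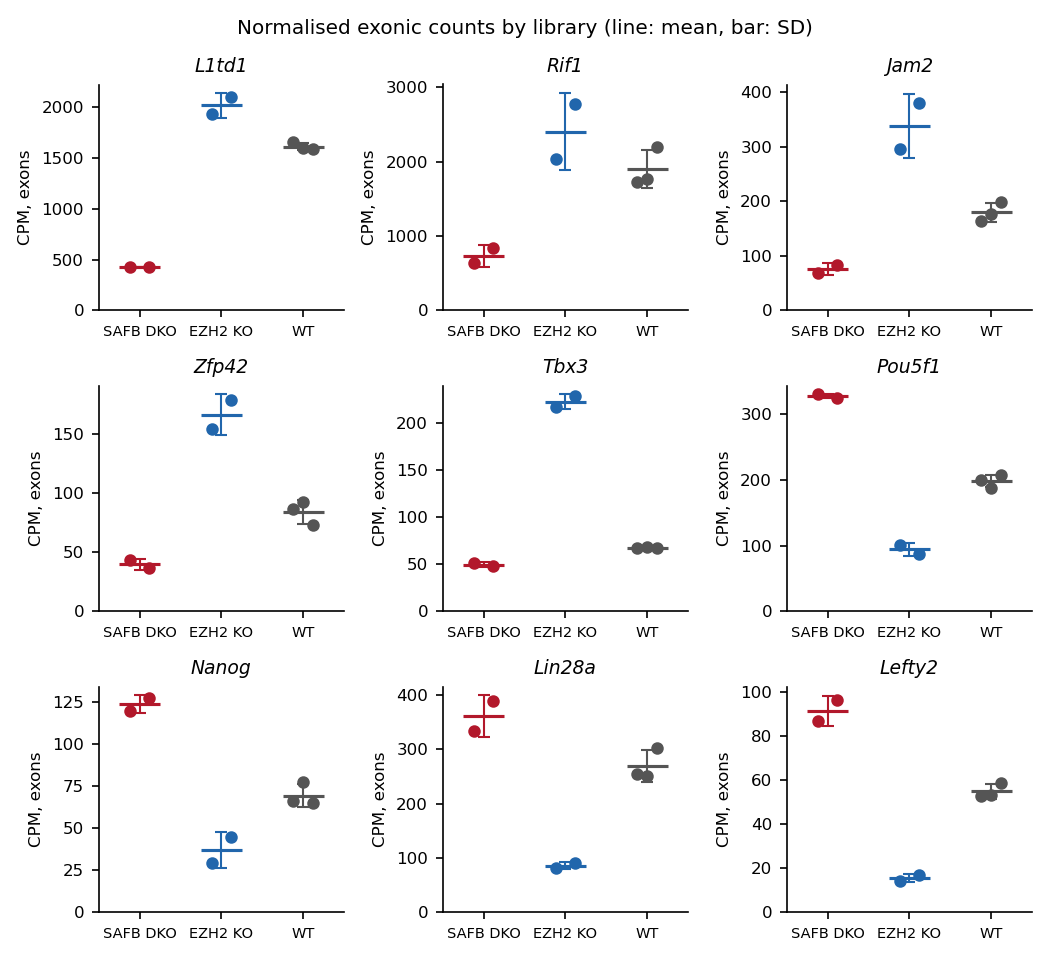
Normalised exonic counts (CPM, y axis from 0) of 9 genes in SAFB DKO (n = 2), EZH2 KO (n = 2) and WT (n = 3) libraries. Points are libraries, lines are means and bars are SD. L1td1, Rif1, Jam2 and Zfp42 are lowest in SAFB DKO, and Pou5f1, Nanog, Lin28a and Lefty2 are highest there and lowest in EZH2 KO.

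Intronic features were found in 16 of the 35 genes. In SAFB DKO against WT, 3 of 16 intron sums fell and none rose by edgeR, where 45.0% of 9867 intron sums fell and 0.841% rose. At an unadjusted p under 0.05, 3 fell and 2 rose, and with DESeq2 or column totals 3 fell and 3 rose. The members' median was -0.25, beside -0.92 over all intron sums. In EZH2 KO against WT, 4 rose and 2 fell, where 26.8% of all intron sums rose and 9.15% fell, and with column totals 3 rose and 3 fell. Medians were -0.12 for the members and 0.26 for all. Introns made up 4.91% to 5.49% of the members' counts in SAFB DKO, 5.06% to 5.91% in EZH2 KO and 4.14% to 4.64% in WT. Over all genes these shares were 12.7% to 12.8% in SAFB DKO, 30.9% to 32.2% in EZH2 KO and 22.6% to 24.1% in WT. Rif1 and L1td1 weigh heavily on the members' shares, and without them introns made up 6.04% to 6.62% in SAFB DKO, 10.2% to 12.4% in EZH2 KO and 7.87% to 8.48% in WT.

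Jam2, Lifr and Prdm14 were the members whose introns fell in SAFB DKO. Jam2 introns had 29.2 and 35.3 CPM in SAFB DKO, 109 and 145 CPM in EZH2 KO, and 65.4, 68.3 and 65.6 CPM in WT, and the groups did not overlap. Their log2 fold change was -1.04 (SE 0.16, adjusted p = 0.00015) in SAFB DKO and 0.94 (SE 0.15, adjusted p = 0.00039) in EZH2 KO. Its intronic short-list peak chr16:84796976-84797855 had 3.01 and 2.96 CPM in SAFB DKO, 26.9 and 42.0 CPM in EZH2 KO, and 11.7, 15.6 and 14.8 CPM in WT. For this peak the log2 fold change was -2.23 (SE 0.27, adjusted p = 1.1e-05) in SAFB DKO and 1.30 (SE 0.24, adjusted p = 0.0016) in EZH2 KO. Lifr introns had 15.1 and 13.9 CPM in SAFB DKO, 45.9 and 76.6 CPM in EZH2 KO, and 24.2, 25.6 and 26.5 CPM in WT. SAFB DKO was lowest, with a log2 fold change of -0.81 (SE 0.20, adjusted p = 0.0059), and EZH2 KO highest at 1.27 (SE 0.20, adjusted p = 0.00028). The intronic feature chr15:7148522-7151962 held 15.2% and 24.0% of the intronic Lifr counts in SAFB DKO, 59.3% and 75.8% in EZH2 KO, and 51.0%, 49.1% and 44.0% in WT (exact permutation p = 0.1 for each knockout against WT). Exact Clopper-Pearson intervals of these shares at the 95% level, which cover counting error only, ran from 11.5% to 29.7% over both SAFB DKO libraries and from 39.6% to 55.4% over the WT libraries.

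Prdm14 introns were scarce, with 0.0912 and 0.646 CPM in SAFB DKO, 5.11 and 3.62 CPM in EZH2 KO, and 2.21, 1.79 and 1.04 CPM in WT. Their log2 value of -2.22 in SAFB DKO (SE 0.68, adjusted p = 0.018) lost the call without SAFB DKO clone 13, the parental WT line or WT clone 20, and in EZH2 KO the value was 1.37 (adjusted p = 0.069). Il6st introns had 11.2 and 10.7 CPM in SAFB DKO, 26.2 and 36.6 CPM in EZH2 KO, and 13.5, 15.4 and 12.4 CPM in WT. They rose by 1.19 on the log2 scale in EZH2 KO (SE 0.20, adjusted p = 0.00048). Nr5a2, an orphan nuclear receptor with 43 intronic features, had 25.4 and 21.8 CPM over them in SAFB DKO, 33.8 and 51.3 CPM in EZH2 KO, and 27.3, 27.8 and 28.8 CPM in WT. In EZH2 KO they had a log2 fold change of 0.60 (SE 0.19, adjusted p = 0.019), a call lost without EZH2 KO clone 19, the parental WT line or WT clone 20, or with column totals. Rif1 introns had 9.12 and 10.2 CPM in SAFB DKO, 3.01 and 2.52 CPM in EZH2 KO, and 7.49, 6.21 and 6.53 CPM in WT, and fell by 1.28 on the log2 scale in EZH2 KO (SE 0.30, adjusted p = 0.0042). The only intronic feature of Zfp42, 85 bases long, had 0.365 and 0.753 CPM in SAFB DKO, no count in EZH2 KO, and 0.643, 0.706 and 0.626 CPM in WT. With a floor of 3 counts over the EZH2 KO libraries it was at least 2.86-fold lower in EZH2 KO than in WT (adjusted p = 0.025), and the call was lost when any EZH2 KO or WT library was left out.

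**Figure D4:**
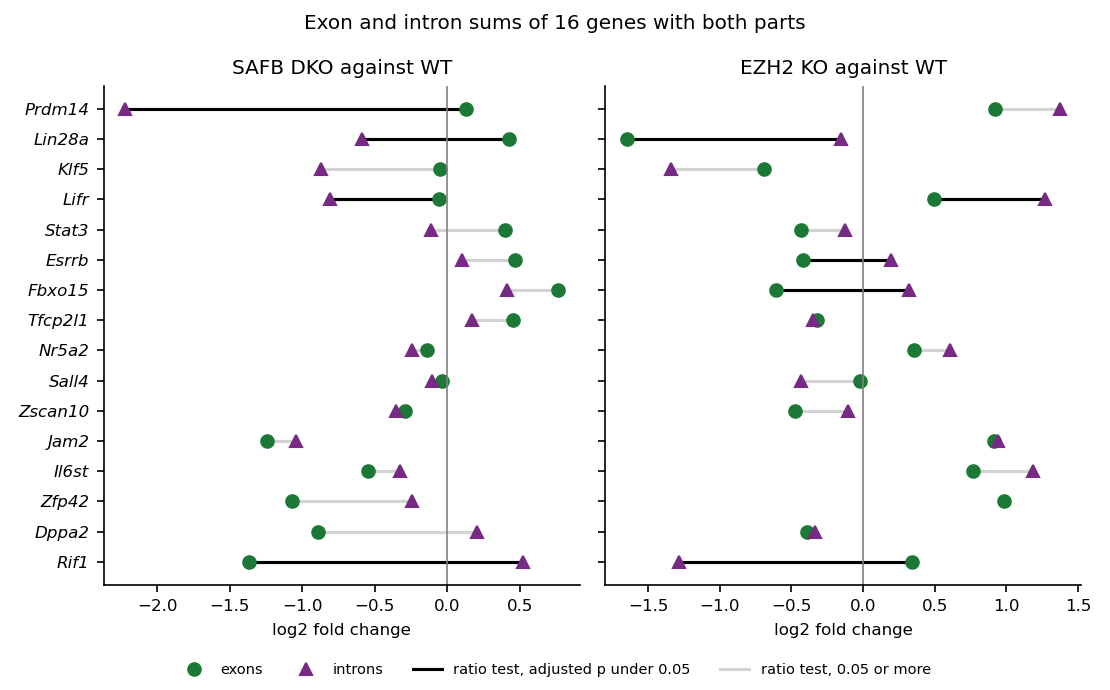
Log2 fold change (x axis) of exon sums (green circles) and intron sums (purple triangles) of 16 genes in SAFB DKO against WT (left) and EZH2 KO against WT (right). Black lines join parts whose ratio changed at an adjusted p under 0.05 and grey lines the rest. The intron sum of Zfp42 in EZH2 KO, which had no count, is not drawn. Rif1 is the gene with introns right of exons and a black line in SAFB DKO.

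The ratio of introns to exons within each library, which does not depend on scaling between libraries, was tested in the same 16 members. In SAFB DKO against WT it fell in 3 and rose in 1, where it fell in 38.2% and rose in 4.66% of 8451 genes. With features counted as exonic only from 50% of their bases, 24 members could be tested, of which 6 ratios fell and 4 rose and 5 intron sums fell and 1 rose. Medians were -0.19 for the members and -0.77 for all genes. Lin28a introns made up 1.23% and 1.46% of its counts in SAFB DKO, 7.35% and 7.12% in EZH2 KO, and 2.66%, 2.41% and 2.97% in WT. The groups did not overlap, and the log2 change of the ratio was -1.02 (SE 0.18, adjusted p = 0.00052) in SAFB DKO and 1.503 (SE 0.21, adjusted p = 0.00029) in EZH2 KO. Lifr introns made up 14.4% and 12.6% in SAFB DKO, 26.2% and 34.9% in EZH2 KO, and 19.9%, 20.9% and 21.8% in WT. The log2 change of its ratio in SAFB DKO was -0.76 (adjusted p = 0.0087), a call lost without SAFB DKO clone 4. In EZH2 KO it was 0.73 (adjusted p = 0.016), a call lost without EZH2 KO clone 19, the parental WT line or WT clone 20. Prdm14 introns made up 0.402% and 2.75% in SAFB DKO, 11.5% and 8.36% in EZH2 KO, and 9.47%, 7.39% and 5.25% in WT. Its log2 change of -2.38 in SAFB DKO (SE 0.59, adjusted p = 0.0059) was not called without SAFB DKO clone 13.

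Rif1 was the member whose ratio rose in SAFB DKO, with introns at 1.42% and 1.204% of counts in SAFB DKO, 0.147% and 0.0909% in EZH2 KO, and 0.432%, 0.350% and 0.296% in WT. The log2 change was 1.89 (SE 0.18, adjusted p = 4.2e-06) in SAFB DKO and -1.62 (SE 0.26, adjusted p = 0.00071) in EZH2 KO. In SAFB DKO its intron sum, at 0.52, was not called (adjusted p = 0.092). The exon part of this ratio is mostly the long coding feature described above, with 91.7%, 90.2% and 90.4% of exonic counts in WT. The other 23 exonic features together had 177 and 267 CPM in SAFB DKO, 89.0 and 155 CPM in EZH2 KO, and 143, 173 and 211 CPM in WT. A ratio of introns to these alone was not tested. Over the 16 members in EZH2 KO the ratio rose in 4 and fell in 2, where it rose in 23.8% and fell in 7.36% of all genes tested. Under the rule of 50% of bases 7 ratios rose and 4 fell, and 7 intron sums rose and 4 fell, of 24 tested in EZH2 KO against WT. Fbxo15 introns made up 43.0% and 40.1% in SAFB DKO, 64.1% and 62.8% in EZH2 KO, and 49.3%, 46.3% and 47.3% in WT, with a log2 change of 0.93 in EZH2 KO (SE 0.18, adjusted p = 0.0023). Esrrb introns made up 19.3% and 17.6% in SAFB DKO, 29.4% and 32.1% in EZH2 KO, and 23.8%, 21.9% and 21.98% in WT, with a log2 change of 0.61 in EZH2 KO (SE 0.14, adjusted p = 0.0075). Zfp42 introns made up 0.838% and 2.01% in SAFB DKO and 0.736%, 0.753% and 0.852% in WT, with no count in EZH2 KO, where the ratio was called lower (adjusted p = 0.0028). Of the exonic feature bases of Fbxo15, Zfp42 and Esrrb, 30.9%, 38.0% and 58.7% were in exons. These percentages are thus shares of features so called, not of intronic RNA.

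Single features were also tested one by one. Of 373 features 339 passed the filter on low counts, 196 exonic and 143 intronic. In SAFB DKO against WT, 22 exonic features rose and 17 fell, where 4.78% of all exonic features rose and 6.52% fell. Among intronic features 8 fell and none rose by edgeR, where 19.7% fell and 0.168% rose over all, and 13 fell and 5 rose at an unadjusted p under 0.05. Over both kinds 22 rose and 25 fell, where 2.26% of all features rose and 17.4% fell, and 51 rose and 22 fell with column totals, or 73 and 24 with DESeq2. All features, here and below, include those on no gene or on more than 1 gene, so this background is wider than the members' kinds. In EZH2 KO against WT, 20 exonic features rose and 32 fell, where 4.72% rose and 13.6% fell over all. Of the intronic features 11 rose and 4 fell, beside 8.8% and 4.32% of all intronic features. Taken over both kinds, 31 rose and 36 fell, where 7.5% of all features rose and 8.07% fell, and 24 rose and 74 fell with column totals. Jam2 alone held 4 of the 8 intronic features that fell and 4 of the 11 that rose. A further intronic feature that fell in SAFB DKO, chr12:86437007-86438313 in Esrrb, belonged to the authors' filtered peak list, and had no count and 0.269 CPM in SAFB DKO, 2.10 and 2.04 CPM in EZH2 KO, and 1.61, 1.46 and 1.25 CPM in WT. Its log2 fold change in SAFB DKO was -3.43 (SE 0.84, adjusted p = 0.0074). All features, those of the filtered list included, were called on pooled WT libraries. They are therefore no independent evidence of a fall from WT.

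Compared directly, SAFB DKO and EZH2 KO differed in the exon sums of 31 of 35 members. In SAFB DKO 19 were higher and 12 lower than in EZH2 KO, where 37.1% of all exon sums were higher and 28.8% lower. With column totals 21 were higher and 7 lower, and with mixed features left out 11 of 19 were higher and 4 lower. Lefty2 had the highest difference at 2.55 (SE 0.18, adjusted p = 4.5e-08) on the log2 scale. Lin28a, Pou5f1 and Dppa5a had differences of 2.07, 1.80 and 2.02. L1td1 had the lowest at -2.24 (SE 0.12, adjusted p = 9.2e-09). Tbx3, Jam2 and Zfp42 had differences of -2.16, -2.15 and -2.06. For intron sums 5 members were lower and 2 higher in SAFB DKO, where 50.3% of all intron sums were lower and 8.27% higher, and with column totals 4 were lower and 5 higher. Prdm14, Lifr, Jam2 and Il6st introns had differences of -3.59, -2.08, -1.98 and -1.52. The ratio of introns to exons was lower in 6 members and higher in 2 (47.3% and 10.1% of all genes tested), with Lin28a at -2.52 and Rif1 at 3.51. Under the rule of 50% of bases 15 ratios and 12 intron sums of 24 were called. Among features 93 were higher and 55 lower, where 16.6% and 23.3% of all features were. Among exonic features alone the background was 29.5% higher and 9.97% lower, and the members had 81 higher and 28 lower.

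Purine shares were described over longer exonic stretches as well. Over 53 exonic stretches of at least 300 bases in 31 member genes, the highest purine share was 63.2% in the L1td1 stretch with a log2 fold change of -2.12, which holds 13.8 copies of GAAGA per kb. Next came the other L1td1 stretch at 62.6%, with 6.85 copies per kb. Rif1 followed at 59.7% and 6.65 copies per kb. Zfp42 had 56.2% and 8.61 copies per kb. The Sall4 stretch with its printed window had 2.12 copies per kb, and the Pou5f1 stretch, of only 317 bases, had none. The median over stretches of all genes with a wholly coding central window was 2.73 copies per kb. Not all followed this order. Examples are an Nr5a2 stretch with 59.2% purines and a log2 fold change of 0.05, and an Il6st stretch with 47.9% purines and -1.52. By copies of GAAGA, a Dppa4 stretch of 301 bases with 6.64 per kb had 0.21 in SAFB DKO. A Mycn stretch with 4.96 per kb had 0.44, and neither was called. A Tbx3 stretch with 5.56 per kb had -0.87 and a Klf4 stretch with 4.93 had -0.70, and both were called. Of 8 member stretches with more than 55% purines, 2 belonged to Nr5a2 and 1 to Zscan10, with log2 fold changes from -0.10 to 0.14. Spearman's rho with the purine share across the 53 stretches was -0.27 in SAFB DKO and 0.06 in EZH2 KO, and none was computed for GAAGA. Stretches of 1 gene share its transcript and all share the libraries, so these values are given as a description without a p-value.

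**Figure D5:**
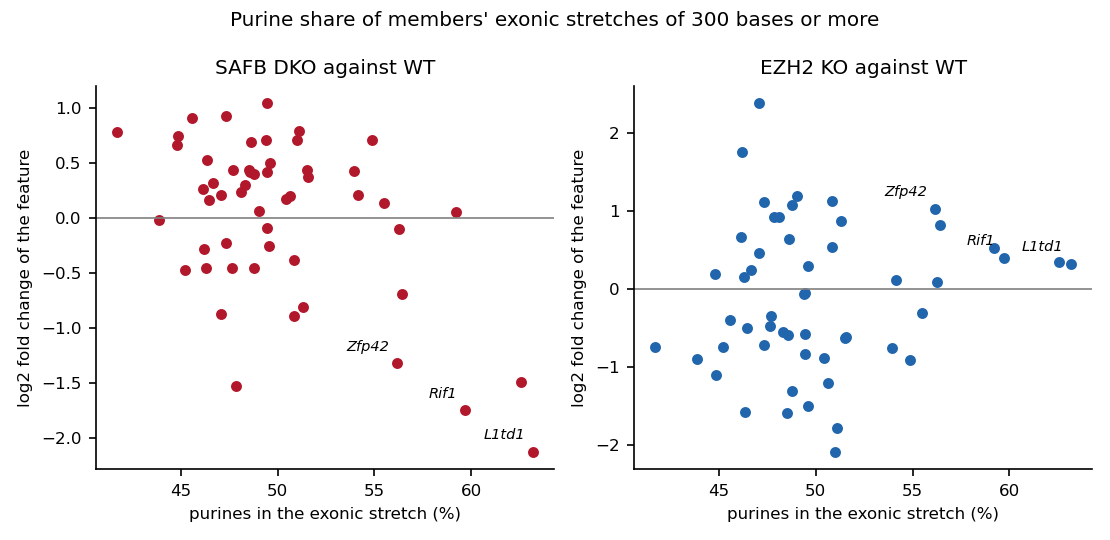
Log2 fold change of the feature (y axis) against the purine share of its exonic stretch in percent (x axis) for 53 stretches of member genes, in SAFB DKO against WT (left) and EZH2 KO against WT (right). Each point is 1 stretch. The labelled points of L1td1, Rif1 and Zfp42 lie at the lower right in SAFB DKO and above 0 in EZH2 KO, while a second Rif1 stretch, at 49.5% purines, lies near 0 in both.

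Other genes of the pathways around these members are counted by their exon sums, of which 20.0% rose and 21.8% fell in SAFB DKO, and 18.1% rose and 27.3% fell in EZH2 KO, over all genes. Of 9 genes of LIF and JAK-STAT signalling, 3 exon sums rose in SAFB DKO, and 1 rose and 4 fell in EZH2 KO. Socs3, the feedback inhibitor of this pathway, had 89.7 and 75.1 CPM in SAFB DKO, 88.4 and 84.4 CPM in EZH2 KO, and 51.2, 55.5 and 42.1 CPM in WT, and rose in both. Among 12 WNT genes 6 rose and 1 fell in SAFB DKO, and 5 fell in EZH2 KO. Ctnnb1, which encodes beta-catenin, had 359 and 369 CPM in SAFB DKO, 76.1 and 86.2 CPM in EZH2 KO, and 201, 212 and 225 CPM in WT. Of 17 FGF and ERK genes 4 rose and 4 fell in SAFB DKO, and 8 fell in EZH2 KO. In SAFB DKO the ERK feedback inhibitor Spry4 had a log2 fold change of -1.14 (SE 0.18, adjusted p = 0.00015). Nodal and BMP genes numbered 19, of which 4 rose and 3 fell in SAFB DKO, and 4 rose and 5 fell in EZH2 KO.

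Of 10 genes of the formative and primed states, which follow the naive state, 3 rose and 1 fell in SAFB DKO, and 1 rose and 5 fell in EZH2 KO. Fgf5, the marker of primed cells, had 4.15 and 7.05 CPM in SAFB DKO, 7.82 and 13.7 CPM in EZH2 KO, and 22.7, 21.7 and 23.9 CPM in WT, and fell in both. Otx2, a factor of the formative state, rose in EZH2 KO by 1.13 on the log2 scale (SE 0.16, adjusted p = 0.00016). Markers of differentiated lineages were counted in the same way. In SAFB DKO 3 of 7 endoderm markers tested, 3 of 6 trophoblast markers and 3 of 4 neural markers fell, beside 21.8% of all exon sums. In EZH2 KO 1 endoderm marker (Col4a2) and 1 trophoblast marker (Eomes) rose, 2 neural markers rose and 2 fell, and 1 mesoderm marker (Kdr) fell. Summed endoderm markers lay between 206 and 209.5 CPM in SAFB DKO, 217 and 232 CPM in EZH2 KO, and 206 and 222 CPM in WT, over 9 of 12 listed genes, while Sox17, Foxa2 and Cubn have no feature of their own and were not measured. Summed neural markers lay between 82.4 and 84.9 CPM in SAFB DKO, 178 and 211 CPM in EZH2 KO, and 207 and 284 CPM in WT, over 4 of 7 listed genes, while Sox1, Neurod1 and Tubb3 have no feature of their own and were not measured. The part of such cells in the values of the pluripotency genes was not tested.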

How the data were processed

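RNA precipitated with an anti-EZH2 antibody was sequenced from SAFB DKO (n = 2), EZH2 KO (n = 2) and WT (n = 3) ES cell libraries. Per the file headers, the authors made the deposited counts with featureCounts 2.0.3, reverse-stranded, over intervals whose names say they were called on pooled WT libraries. The build was mm10 per the submitters' processing notes. The aligner and the peak caller are not given in the sources used here. Counting of reads shared by paralogs is likewise not given. The table has 3 value columns of no analysed sample, which were not used. SAFB DKO replicates carry 1 number in the labels and were told apart by clone.

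Features were placed on GENCODE M21 genes (an overlap of 1 base is a hit), summed per gene into an exon and an intron row, and tested with edgeR 4.0.16 (quasi-likelihood F-test, R 4.3.3) on 7 libraries in 1 fit by group. TMM factors computed on tested features outside the filtered peak list were applied to the column totals, and CPM uses the resulting sizes. Low rows were removed by filterByExpr, and p-values were adjusted by Benjamini-Hochberg over all tested rows. Called means an adjusted p under 0.05. Introns against exons were tested by edgeR with a term for each library. The same adjustment ran over all tested features in the fit of single features. The procedure was tested on simulated data. Shares of single features were compared by exact permutation, and their 95% intervals, like the floor of 3 counts over a group, cover counting error only. Alternatives were other scalings, other filters, DESeq2 1.42.0, limma 3.58.1, other rules for exonic features and leaving out each library. Python 3.11.15, pandas 2.3.3 and scipy 1.17.1 were used.

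Members and lists were chosen with earlier results of these data known. All members may be named. Values of every library are given for the core factors, for up to 4 members called in each direction with the smallest adjusted p in each comparison, and for members with a peak of the short list. Other single features were chosen after their values were seen.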

Additional observations from a re-analysis of the deposited data

How the results depend on the processing

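Exon sums that were called kept their direction under other scalings, DESeq2, other filters and leaving out single libraries. Some that were not called changed sign, namely those of Klf4, Klf5, Nr5a2, Sall4 and Lifr in SAFB DKO against WT, Sall4, Gdf3 and Klf2 in EZH2 KO against WT, and Zscan10, Gdf3 and Sall4 in SAFB DKO against EZH2 KO, where Sall4 was called at 0.45 with column totals. Scaling moved the median of all exon sums by up to 0.25 in SAFB DKO against WT (DESeq2), by -0.25 in EZH2 KO against WT and by 0.47 in SAFB DKO against EZH2 KO (column totals), and Esrrb introns had 0.38 in the last with column totals. The causes were not tested.

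With mixed features left out, which tests fewer genes, 10, 9 and 15 exon sums were called in SAFB DKO against WT, EZH2 KO against WT and SAFB DKO against EZH2 KO. Tbx3 then had 0.25 and Dppa2 0.49 in the first, and in the last Nr5a2 had 0.34, Sall4 0.66, Prdm14 0.075, Lifr 0.20 and Dppa2 1.95. Counting features as exonic only from 50% of their bases called 6, 11 and 12 intron sums and 10, 11 and 15 ratios. Exon sums under that rule were 0.49 for Dppa2 in SAFB DKO against WT and -0.79 for Tfap2c in EZH2 KO against WT, and 1.88 for Tfap2c, 0.056 for Prdm14 and 1.95 for Dppa2 in SAFB DKO against EZH2 KO. Intron sums were -0.50 for Tfcp2l1 and -1.79 for Dppa2 in SAFB DKO against WT, 0.50 for Tfcp2l1 and 0.027 for Zfp42 in EZH2 KO against WT, and -0.99 for Tfcp2l1 and -1.62 for Dppa2 in SAFB DKO against EZH2 KO. Ratios were -2.30 for Dppa2, 1.66 for Tfcp2l1, and 0.49 for Il6st and -3.54 for Dppa2 in the same order of comparisons.

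In SAFB DKO against WT, TMM factors from all features called 5 intron sums, column totals and DESeq2 each called 6, and they called 73 and 97 features in that order. In EZH2 KO against WT DESeq2 called 104 features.

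Whether the labels' replicate numbers of EZH2 KO and WT mark pairs was not settled. Deviations from group means had correlations of 0.08 and 0.007 between libraries of the same number. With 2 EZH2 KO libraries these deviations mirror each other, so the check has little power. A replicate block was fitted to the EZH2 KO and WT libraries alone, with limma on log2 ratios in place of the edgeR ratio test. In that fit 23 exon sums, 5 intron sums, 0 ratios and 50 features were called in EZH2 KO against WT. Its count of ratios thus comes from another test on fewer libraries.

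Leaving out 1 library gave 15 to 26 exon sums, 2 to 6 intron sums, 3 to 7 ratios and 29 to 79 features in SAFB DKO against WT. It gave 19 to 27, 4 to 7, 5 to 7 and 40 to 119 in EZH2 KO against WT, and 29 to 32, 6 to 9, 7 to 9 and 121 to 178 in SAFB DKO against EZH2 KO. The lowest count of exon sums and of features in SAFB DKO against WT came without SAFB DKO clone 4, and intron sums, ratios and features were highest without an EZH2 KO clone. In EZH2 KO against WT 119 features were called without EZH2 KO clone 19, 41 without the parental WT line and 40 without WT clone 44. The Klf5 ratio in SAFB DKO against EZH2 KO was -1.21 without EZH2 KO clone 12 and 5.98 without EZH2 KO clone 19. EZH2 KO libraries were the shallowest, which limits their low introns.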

Other observations

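Of the 5274 exonic features of all genes with a wholly coding window of 300 bases at the centre of their exonic stretch, 5175 passed the filter on low counts. These were ordered by the purine share of that window and divided into 5 bins of like size. In SAFB DKO against WT the median log2 fold change was -0.05 in the bin with the lowest share and -0.17, -0.25, -0.49 and -0.71 in the bins after it. In EZH2 KO against WT the medians were -0.10, 0.05, 0.27, 0.40 and 0.33 in the same order. Spearman's rho with the purine share of the window was -0.23 in SAFB DKO and 0.17 in EZH2 KO. With copies of GAAGA per kb of the stretch it was -0.20 in SAFB DKO and 0.10 in EZH2 KO. Windows share their libraries and often their genes, and the values are a description of these libraries, with no p-value.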
